A study of Mus musculus with 48 samples.

Results

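The response of the whole lung to mainstream cigarette smoke was measured in mice of regular weight, by comparing 8 lungs exposed to mainstream smoke with 8 lungs exposed to filtered air. These 16 arrays were chosen by their deposited titles, RW-MS and RW-SC, from the 48 arrays of the series, and all 12393 genes with a usable probe set were tested. All were male C57BL/6 mice on a pelleted diet with about 5 kcal% fat, bought at 13 weeks of age and 15 weeks old at the first exposure. In the first group (RW-MS, here mainstream lungs) the mice breathed mainstream smoke, the smoke drawn through a cigarette, and in the second (RW-SC, here air lungs) filtered air as sham controls. Both groups were exposed through the nose only, with 8 daily exposures of 5 hours within 2 weeks and a pause of 2 days after the first 5, and lungs were taken the day after the last exposure. The animals' description also mentions a short LPS study, and whether any animal received LPS is not given in the sources used here. A further regular weight group of 8 (RW-SS, sidestream lungs) breathed sidestream smoke, which the burning tip gives off. For obese mice fed a diet with 60 kcal% fat, 8 breathed mainstream smoke (DIO-MS) and 8 filtered air (DIO-SC), and these 3 groups are compared only in the last comparisons. The choice of probe sets and every fit given as over 48 arrays used all arrays, obese sidestream lungs (DIO-SS) included.

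Cigarette smoke carries fine particles, reactive gases and polycyclic aromatic hydrocarbons into the airways and alveoli. Alveolar macrophages clear the particles, and they and the epithelium release chemokines that draw neutrophils and monocytes from the blood. Other known arms of the response are the aryl hydrocarbon receptor, which switches on Cyp1 enzymes, the transcription factor NRF2, which switches on genes of glutathione and NADPH supply, and proteases such as macrophage elastase.

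Surfactant and club cell transcripts marked all 16 samples as lung. On the log2 scale of the array, Sftpc had 15.03 to 15.13 in mainstream and 15.07 to 15.11 in air lungs, Scgb1a1 had 15.13 to 15.19 in mainstream and 15.08 to 15.27 in air lungs, Ager of type 1 cells had 13.43 to 13.55 in mainstream and 13.58 to 13.79 in air lungs and Pecam1 of endothelium had 11.25 to 11.62 in mainstream and 11.50 to 12.10 in air lungs. The 16 array medians lay between 7.83 and 7.94, the mean correlation of an array with the others of its group lay between 0.9917 and 0.9952, and 0 of the 5 arrays of the series that stand apart from their groups were among them. The 3′ minus 5′ signal of the Actb control, a measure of RNA quality, was 0.51 ± 0.13 in mainstream lungs and 0.39 ± 0.13 in air lungs (SD, n = 8 each), and that of Gapdh was -0.07 ± 0.07 in mainstream lungs and -0.09 ± 0.04 in air lungs. The part of this Actb difference in the results was not tested. The deposited source names of RW-MS-7 and RW-MS-8 repeat the replicate numbers of RW-MS-5 and RW-MS-6. Their values differ, with these pairs at ranks 23 and 7 of 28 from the most alike pair, which does not show that the animals differ. All 8 were counted as separate animals. Without RW-MS-7 and RW-MS-8, 1549 genes were called between mainstream and air lungs, against 2211 with them. Because whole lung was measured, fewer cells of a type and less RNA per cell cannot be told apart in any result given here.

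Mainstream smoke changed 2211 of the 12393 genes at an adjusted p below 0.05 (limma), which is 17.8% of all genes. Of these, 969 (7.82%) were higher and 1242 (10%) lower in mainstream lungs, but the large changes were mostly rises. These shares of all genes are the background for the counts and shares of gene lists given below. Among called genes, 237 were at least 1.5-fold higher and 44 at least 1.5-fold lower, 87 and 9 passed 2-fold, 19 and 3 passed 4-fold, and 6 and 0 passed 8-fold. The median difference over all genes was -0.03 on the log2 scale. For 344 genes (2.78%) every mainstream lung lay above every air lung, and for 248 (2%) every mainstream lung lay below. The first principal component over the 16 arrays held 36.2% of the variance and separated all mainstream from all air lungs. Calls of Abca1, Angptl4, Cry1, Ctsf, Cxcr3, Cycs, Cyp2e1, Il16, Nkx2-1 and Rora were each lost in 14 or more of 28 alternative settings.

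**Figure D1:**
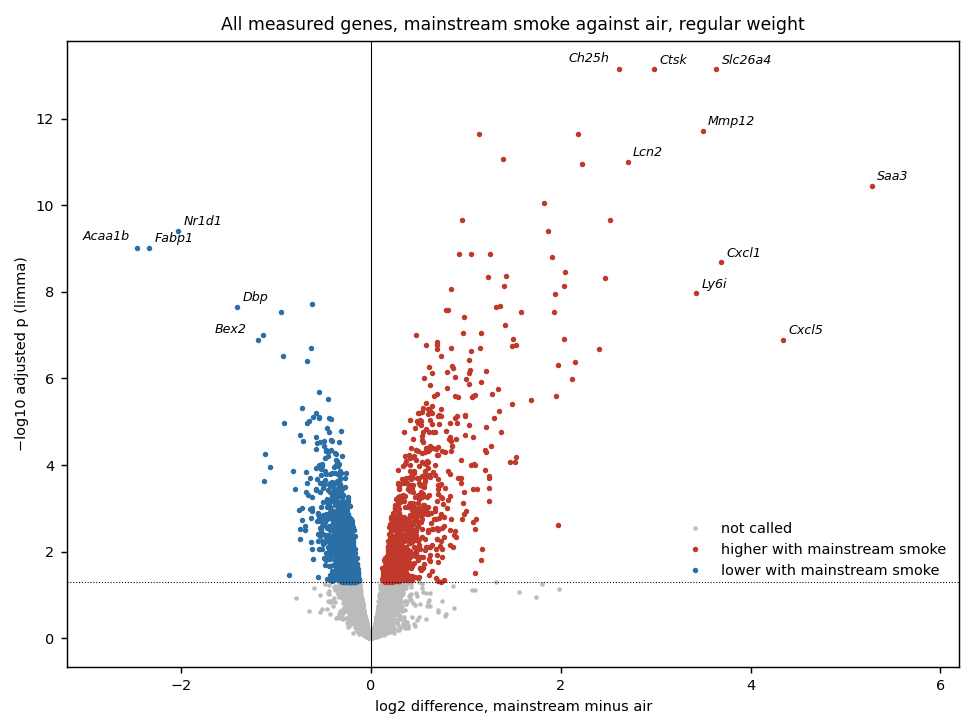
Difference of each of the 12393 genes (x axis, log2, mainstream minus air) against its adjusted p (y axis, −log10, limma); red and blue points are the 969 higher and 1242 lower genes, and the dotted line marks an adjusted p of 0.05. The largest rises reach farther from 0 than the largest falls, with Saa3 at 5.28 and Acaa1b at -2.46.

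The largest rise was that of Saa3, an acute phase protein of the serum amyloid A family made in lung by macrophages and epithelium. Saa3 had log2 signals of 11.62, 13.60 and 13.92 in mainstream lungs (the lowest, the median and the highest of 8), against 7.5, 8.21 and 8.53 in air lungs. The difference was 5.28 ± 0.25 (log2 ± SE, adjusted p 3.49e-11), a 38.8-fold rise. All 8 mainstream lungs lay above all 8 air lungs, and RW-MS-5, at 11.62, was the lowest of them, below 13.36 to 13.92 in the other 7. Such separation was a condition for choosing the 15 largest rises and 15 largest falls, Saa3 among them. For those genes, here and below, it is therefore no separate evidence. Saa1 rose by 1.2 and Saa2 by 0.58, whereas Saa4, a constitutive member of the family, differed by 0.20 and was not called. Orm1 and Orm2, which encode orosomucoids, rose by 2.12 and 0.83. Of the 31 measured genes of the acute phase and of iron handling, 15 rose and 0 fell, with a median of 0.31 against -0.03 over all genes. For 14 of them the 2 groups did not overlap, against 2.78% of all genes above and 2% below.

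The list also holds genes that bind or move iron, some called and some not. Lcn2, lipocalin 2, binds bacterial siderophores and withholds iron from microbes. Lcn2 had log2 signals of 13.36, 13.71 and 13.87 in mainstream lungs, against 10.52, 10.99 and 11.39 in air lungs. It rose by 2.70 ± 0.12 (adjusted p 9.73e-12), and the groups were fully apart. Steap4, a metalloreductase, rose by 2.47 ± 0.16, Slc11a1, a phagosomal metal transporter, by 0.61, and Cp, the ferroxidase ceruloplasmin, by 0.53. Lactoferrin, Ltf, was 1.10 higher on average but was not called, with an SD of 0.75 in mainstream lungs and 1.11 in air lungs. Hp and Hpx, which bind haemoglobin and haem, differed by 0.12 and 0.22, and the haem oxygenase Hmox1 by 0.21, and none of these was called. Itih4, an inhibitor heavy chain of the acute phase, rose by 2.19 ± 0.09, Lrg1 by 1.58 and Cd14, the lipopolysaccharide co-receptor, by 1.42.

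**Figure D2:**
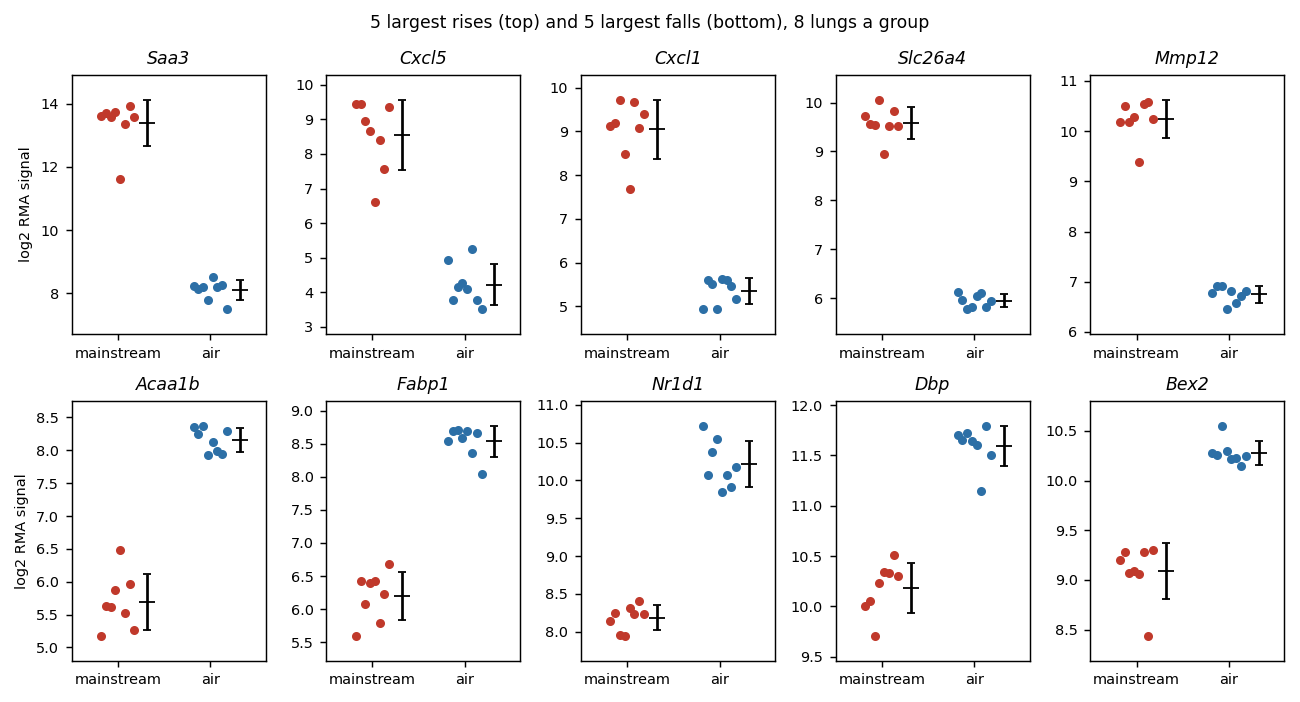
Log2 RMA signal of the 5 genes with the largest rises and the 5 with the largest falls among genes whose groups do not overlap; points are lungs (8 mainstream, red; 8 air, blue), and bars are means ± SD. The mainstream and air points are fully apart in all 10 panels by that choice of genes, and in Saa3 a single mainstream lung at 11.62 lies below the other 7.

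Neutrophil-attracting CXC chemokines formed the next group. Cxcl5, made mainly by alveolar epithelium in mice, Cxcl1 and Cxcl2 all bind the receptor Cxcr2 on neutrophils. Cxcl5 had log2 signals of 6.61, 8.81 and 9.45 in mainstream lungs, against 3.51, 4.12 and 5.25 in air lungs. Cxcl1 had log2 signals of 7.67, 9.16 and 9.72 in mainstream lungs, against 4.93, 5.49 and 5.62 in air lungs. Cxcl2 had log2 signals of 4.95, 6.29 and 6.56 in mainstream lungs, against 3.55, 3.97 and 4.59 in air lungs. All 3 genes were fully separated between the groups, and RW-MS-5 was the lowest mainstream lung in each. The differences were 4.34 ± 0.37 for Cxcl5 (adjusted p 1.28e-07), 3.69 ± 0.23 for Cxcl1 (adjusted p 2.05e-09) and 2.15 ± 0.20 for Cxcl2 (adjusted p 4.27e-07). Their receptor Cxcr2 differed by 0.19 and was not called. Cxcl10 and Cxcl9, ligands of Cxcr3 on T and NK cells, rose by 1.97 and 1.10, and Cxcr3 itself fell by 0.23. Cxcl17 of mucosal epithelium rose by 0.63, Cxcl13, which attracts B cells, by 0.46, and Cxcl16 by 0.36. Platelet basic protein, Ppbp, fell by 0.56, Cxcr4 by 0.51 and Cxcr5 by 0.54. In all, 9 of the 20 measured CXC genes rose and 4 fell (65% called against 17.8% of all genes, median 0.20).

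The promoters of Cxcl1 and Cxcl2, neighbours on chromosome 5, are shown because each holds the NF-κB consensus, the sequence that this inflammatory transcription factor binds. They are RefSeq sequences of build GRCm38.p6, 300 bases read 5′ to 3′ on the plus strand that run across the start of the gene, with the last 50 after it, and capitals mark the consensus, which each matches on both strands with an overlap. Cxcl1 covers chr5:90890995-90891294 and Cxcl2 covers chr5:90903649-90903948. In Cxcl1 the first marked base lies 71 bases before the start and in Cxcl2 97 bases before it.
Cxcl1: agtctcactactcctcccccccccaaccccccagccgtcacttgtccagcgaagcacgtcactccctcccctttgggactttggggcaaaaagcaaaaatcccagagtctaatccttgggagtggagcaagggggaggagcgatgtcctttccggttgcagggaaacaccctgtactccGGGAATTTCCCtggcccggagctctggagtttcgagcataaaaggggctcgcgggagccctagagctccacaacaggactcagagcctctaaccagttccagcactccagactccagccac
Cxcl2: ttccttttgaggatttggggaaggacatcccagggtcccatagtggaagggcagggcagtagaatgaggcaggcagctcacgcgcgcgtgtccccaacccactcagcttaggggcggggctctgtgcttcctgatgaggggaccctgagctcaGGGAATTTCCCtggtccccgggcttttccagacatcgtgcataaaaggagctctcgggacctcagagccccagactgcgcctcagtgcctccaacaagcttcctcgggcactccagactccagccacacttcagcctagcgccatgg
Of the 15 genes with the largest rises, 12 had a promoter in the table and 4 of these held the consensus on either strand (Cxcl1, Cxcl2, Mmp12 and Steap4). The consensus was present in 8.46% of all 32851 promoters of the set and in 9.55% of its 27025 genes. Saa3 and Lcn2 were among the genes without a match in this window. A match is a description of the letters and no measurement of binding.

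Monocyte-attracting CC chemokines rose as well. Ccl2, Ccl7 and Ccl12 bind Ccr2 on monocytes, Ccl3, Ccl6 and Ccl9 bind Ccr1, and Ccl17 and Ccl22 bind Ccr4 on T cells. Ccl2 had log2 signals of 6.68, 8.14 and 8.93 in mainstream lungs, against 5.29, 5.62 and 5.93 in air lungs. Ccl17 had log2 signals of 9.11, 10.43 and 10.90 in mainstream lungs, against 7.86, 8.25 and 8.64 in air lungs. Neither gene had a mainstream lung within the range of the air lungs. Ccl2 rose by 2.40 ± 0.21 (adjusted p 2.09e-07), Ccl12 by 2.03, Ccl7 by 1.24 and the receptor Ccr2 by 0.51. Ccl3 rose by 1.93, Ccl9 by 1.82, Ccl6 by 1.40 and the receptor Ccr1 by 1.15. Ccl17 rose by 1.95 ± 0.21 and Ccl22 by 1.68, while Ccr4 differed by -0.16 without a call. Ccl4, often induced with Ccl3, differed by 0.11 and was not called, and Ccl5, made by T and NK cells, fell by 0.53. Of 28 measured CC chemokines and receptors 13 rose and 2 fell (53.6% called against 17.8% of all genes), with a median of 0.14.

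Among interleukins and colony-stimulating factors, 16 of 43 measured genes rose and 2 fell (41.9% called, median 0.11). Il6 rose by 1.35 ± 0.15, the interleukin 1 receptor antagonist Il1rn by 1.08 ± 0.11, Il33, an epithelial alarmin, by 0.83, Il1a by 0.61 and Il1b by 0.50. Il6 had log2 signals of 4.84, 5.21 and 5.96 in mainstream lungs, against 3.46, 3.85 and 4.39 in air lungs. The groups did not overlap. Csf2, the cytokine GM-CSF on which alveolar macrophages depend, rose by 0.91 ± 0.11, and both chains of its receptor rose, Csf2rb by 0.88 and Csf2ra by 0.47. Csf1 rose by 0.43, whereas Csf3, which drives neutrophil production, differed by 0.17 and Il17a by 0.09, and neither was called. The type 2 cytokines Il4, Il5 and Il13 differed by -0.01, 0.05 and -0.12 and none was called. Csf3, Il17a, Il4, Il5 and Il13 were among the dimmest 25% of genes, where a change may not show. Il6, Il1a and Il12a, which were called, were also among these dim genes. Il12a fell by 0.48 and Il16 by 0.23. In the TNF list 9 of 31 measured genes rose and 4 fell (41.9% called against 17.8% of all genes). The rises were led by the costimulatory receptor Tnfrsf9 at 0.90 and Tnfaip2 at 0.74, and Tnf itself rose by 0.35. The 3 Tnfrsf9 probe sets lay between 0.05 and 1.71. Fitted over all 48 arrays, 5 of the TNF list rose and 0 fell, and without RW-MS-7 and RW-SC-4 the counts were 4 and 2.

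Macrophage elastase, Mmp12, was among the largest rises, and its protein degrades elastin. Mmp12 had log2 signals of 9.38, 10.27 and 10.59 in mainstream lungs, against 6.45, 6.79 and 6.92 in air lungs. It rose by 3.49 ± 0.13 (adjusted p 1.86e-12), with no overlap between the groups. Timp1, an inhibitor of metalloproteinases, rose by 2.23 ± 0.10, the neutrophil collagenase Mmp8 by 1.22 ± 0.15, the gelatinase Mmp2 by 1.04 ± 0.10 and Mmp14, which activates pro-Mmp2, by 0.64. Mmp13, Mmp19 and Adam8 rose by 0.87, 0.77 and 0.84. Mmp9, the gelatinase of neutrophil granules, differed by 0.03 and was not called, and Timp3, which is bound to the matrix, fell by 0.38. Counted together, 9 of 22 measured metalloproteinase and Timp genes rose and 1 fell (45.5% called against 17.8% of all genes, median 0.13). Of 18 measured serpins 5 rose and 0 fell (27.8% called), and Serpina3n, an acute phase inhibitor, led them at 0.91.

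Lysosomal genes rose broadly. Of 44 measured, 26 rose and 2 fell, against 7.82% and 10% of all genes, and their median was 0.24. Ctsk, cathepsin K, a collagen-degrading protease, moved most. Ctsk had log2 signals of 11.54, 11.86 and 12.21 in mainstream lungs, against 8.52, 8.91 and 9.08 in air lungs. It rose by 2.99 ± 0.09 (adjusted p 7.11e-14), and the groups were far apart. Ctsd rose by 0.86 ± 0.08, Ctss by 0.55, Ctsz by 0.58 and Ctsb by 0.47, and the glycosidases Gla, Gusb and Hexa rose by 0.74, 0.53 and 0.43. The proton pump subunit Atp6v1c1 rose by 0.60, and the membrane protein gene Lamp1 differed by 0.10 without a call. The 2 members that fell were Ctsw, a protease of cytotoxic lymphocytes, and Ctsf.

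Of 27 measured lipid-handling genes of macrophages 10 rose and 3 fell (48.1% called, median 0.06). Ch25h, which makes 25-hydroxycholesterol, rose by 2.62 ± 0.08 (adjusted p 7.11e-14), and Gpnmb, a glycoprotein of lysosome-rich macrophages, by 2.52 ± 0.13. Gpnmb had log2 signals of 10.49, 10.94 and 11.74 in mainstream lungs, against 8.36, 8.50 and 8.75 in air lungs. Every mainstream lung lay above every air lung. Cd68 rose by 1.36, the lipid-sensing receptor Trem2 by 1.3, the scavenger receptor Msr1 by 1.16, Lgals3 by 0.70 and the lipid droplet coat gene Plin2 by 0.51. The following genes of cholesterol efflux and lipid uptake were lower or not called, unlike the scavenger receptor Msr1. Abca1 fell by 0.22, its regulator Nr1h3 by 0.27, Cd36 by 0.25, and Abcg1 and Apoe each differed by 0.01 without a call.

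Markers of alveolar macrophages split into both directions. Of 19 measured, 9 rose and 2 fell (57.9% called, median 0.34). Marco, a scavenger receptor for particles, rose by 1.98 ± 0.18, Itgax, the integrin CD11c, by 0.98 ± 0.08, Olr1 by 0.74, Plet1 by 0.81 and Mrc1 by 0.38. Marco had log2 signals of 9.41, 10.01 and 10.84 in mainstream lungs, against 7.66, 8.11 and 8.52 in air lungs. Siglecf had log2 signals of 6.98, 7.28 and 8.28 in mainstream lungs, against 7.71, 8.22 and 8.31 in air lungs. The Marco groups were apart, and Siglecf, the surface lectin that defines resident alveolar macrophages and is also on eosinophils, moved the other way, with 6 of 8 mainstream lungs below every air lung. Siglecf fell by 0.75 (adjusted p 0.00308) and Krt79, a keratin gene used as a marker of these cells in mice, by 0.92 (adjusted p 1.07e-05). Pparg, the factor that sets alveolar macrophage identity, Chil3 and Car4 differed by 0.04, 0.09 and -0.05, and none was called.

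Monocyte and interstitial macrophage markers gave 15 rises and 2 falls among 28 measured genes (60.7% called, median 0.32). C1qa, C1qb and C1qc rose by 1.04, 1.21 and 1.07, Ms4a7 by 1.2, Fcgr1 by 0.69, Itgam by 0.52 and Adgre1, a macrophage surface receptor, by 0.48. Lyve1, found on one subset of interstitial macrophages and on lymphatic vessels, fell by 0.44, and Cx3cr1 differed by 0.13 without a call. Among scavenger and C-type lectin receptors 15 of 30 rose and 3 fell (60% called, median 0.34). Clec5a rose by 1.91 ± 0.12, Clec4n, which encodes dectin-2, by 1.41, Clec4d by 1.26, Clec7a, which encodes dectin-1, by 0.91 and Tlr2 by 0.56. Clec5a had log2 signals of 7.63, 7.80 and 8.33 in mainstream lungs, against 5.54, 5.93 and 6.32 in air lungs. All 8 mainstream lungs were above the air lungs. Cd209a, a dendritic cell lectin, fell by 0.57. In the Ly6 family of surface proteins, Ly6i rose by 3.43 ± 0.24 (adjusted p 1.07e-08), while the epithelial members Ly6d and Ly6g6c fell by 0.46 and 0.47, and neither was called in the fit over all 48 arrays.

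Complement genes followed the same direction, with 15 of 25 measured genes higher and 2 lower (68% called against 17.8% of all genes, median 0.35). C3ar1, the receptor of the C3a fragment, rose by 1.34 ± 0.14, factor B, Cfb, by 1.26 ± 0.17, Vsig4 by 0.63 and C1ra by 0.62. Cfb had log2 signals of 8.97, 9.67 and 10.68 in mainstream lungs, against 8.08, 8.55 and 8.76 in air lungs. The Cfb groups did not overlap. The C5a receptor C5ar1 fell by 0.41 and Cr2, a complement receptor of B cells, by 0.40.

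Although neutrophil chemokines rose by up to 4.34 on the log2 scale, the share of neutrophil markers called was 20%, near the 17.8% of all genes. Of 25 measured, 3 rose and 2 fell, with a median of 0.01 against -0.03 over all genes. S100a8 and S100a9, the subunits of calprotectin, differed by 0.13 ± 0.16 and 0.07 ± 0.17, and the receptors Csf3r and Fpr2 by 0.06 and -0.42, of which Fpr2 fell. S100a8 had log2 signals of 10.91, 11.35 and 12.10 in mainstream lungs, against 11, 11.27 and 12.03 in air lungs. Ngp had log2 signals of 5.19, 5.41 and 6.89 in mainstream lungs, against 5.24, 6.05 and 8.48 in air lungs. The groups overlapped for both genes. The granule genes Mpo and Elane differed by -0.03 and -0.03, and Ngp and Camp by -0.66 and -0.53, and none of these was called. These granule genes were among the dimmest 25% of genes over the 16 arrays, where a change may not show. The 3 that rose were Clec4d, Mmp8 and Il1r2, which monocytes, macrophages or other cells can also express.

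Genes of eosinophils, type 2 responses and mucus gave 6 rises and 3 falls among 30 measured (30% called against 17.8% of all genes, median 0.11). Slc26a4, the anion exchanger pendrin, which airway epithelium switches on in inflammation, was the largest. Slc26a4 had log2 signals of 8.94, 9.55 and 10.06 in mainstream lungs, against 5.77, 5.95 and 6.12 in air lungs. It rose by 3.64 ± 0.11 (adjusted p 7.11e-14), with the groups far apart. Retnla, a secreted protein of alternatively activated macrophages, rose by 1.52 ± 0.22. Arg1, an enzyme of the same state, differed by 0.79 and was not called. Arg1 had log2 signals of 5.28, 5.53 and 9.42 in mainstream lungs, against 5.25, 5.58 and 6.02 in air lungs. RW-MS-5 and RW-MS-7 lay far above the other 6 mainstream lungs, and the SD was 1.61 in mainstream lungs and 0.25 in air lungs. The mucins Muc5ac and Muc5b differed by -0.06 and 0.59 and the goblet cell genes Clca1 and Agr2 by 0.07 and 0.31. The eosinophil granule genes Prg2 and Epx differed by -0.23 and -0.13, and none of these genes was called. Clca1, Agr2, Prg2 and Epx were among the dimmest 25% of genes. Ear3, a ribonuclease of the eosinophil-associated family that mouse alveolar macrophages also express, fell by 1.13 (adjusted p 2.40e-04).

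Antigen presentation genes rose in part. Of 24 measured genes of MHC class II and dendritic cells, 13 rose and 3 fell (66.7% called, median 0.15). Fscn1, an actin bundler of mature dendritic cells, rose by 1.42 ± 0.11, and its 4 probe sets lay between -0.01 and 1.42. Cd83 and Cd86, which mark activation, rose by 0.89 and 0.66, and Itgae, the integrin CD103, by 0.57. Fscn1 had log2 signals of 9.09, 9.38 and 9.65 in mainstream lungs, against 7.29, 8.01 and 8.30 in air lungs. The groups did not overlap. H2-Ab1 and Cd74 each rose by 0.21. Ccr7, which guides mature dendritic cells to lymph nodes, and Ciita, the master regulator of MHC class II, differed by -0.14 and -0.02 without calls. H2-Oa, found mainly in B cells, fell by 0.43.

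Lymphocyte marker lists were lower by their medians. In the B cell list 9 of 17 measured genes fell and 1 rose (58.8% called, median -0.36). In the T cell list 11 of 22 fell and 1 rose (54.5% called, median -0.22). In the NK and cytotoxic list 10 of 21 fell and 0 rose (47.6% called, median -0.22). Ms4a1 had log2 signals of 8.49, 9.28 and 9.62 in mainstream lungs, against 9.66, 9.80 and 10.49 in air lungs. Ms4a1, which encodes CD20, fell by 0.70 ± 0.15 (SE, adjusted p 0.00262), and all 8 mainstream lungs lay below all air lungs. It was among the 15 largest falls, for which this separation was a condition, and 9.62 and 9.66 were the nearest values. The B cell receptor genes Cd79a and Cd79b fell by 0.62 and 0.50, and Ighm, the heavy chain of IgM, by 0.54. The Ighm call was lost over all 48 arrays and with its probe sets averaged, where the difference was -0.16. Cd8a, Cd8b1 and Cd3g fell by 0.42, 0.56 and 0.46, while Cd4 differed by 0.17 without a call and Il7r rose by 0.46. Ncr1, the NK cell receptor NKp46, fell by 0.58, the granzymes Gzma and Gzmb by 0.56 and 0.56 and Prf1, perforin, by 0.48. The 2 Prf1 probe sets lay at -0.48 and -0.03. Ncr1 had log2 signals of 5.66, 5.82 and 5.97 in mainstream lungs, against 5.99, 6.38 and 6.68 in air lungs. The groups did not overlap for Ncr1. Fitted over all 48 arrays, 1 T cell gene and 4 NK genes fell, where the 16 arrays gave 11 and 10. The differences are the same in both fits, but the fit over 48 arrays pools the spread of all groups. The mean T cell level reached 9.68 in obese air lungs, and 7.11 without the arrays that stand apart. The mean NK level reached 7.88 in obese mainstream lungs, and 6.70 without them. The part of this spread in the lost calls was not tested. Pigr, the epithelial receptor that carries IgA into the airway, rose by 1.53 ± 0.13, while Igha and Jchain differed by 0.36 and 0.08 without calls.

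Few interferon-induced genes were called. Of 36 measured, 3 rose and 0 fell (8.33% called, against 17.8% of all genes), and the 3 were Cxcl10, Cxcl9 and Ifitm1. The mean level of the list was highest in RW-MS-7 among mainstream lungs, at 10.04 against 8.61 to 9.09 in the other 7, and in RW-SC-4 among air lungs, at 9.52 against 8.69 to 8.83. Irf7 had log2 signals of 7.76, 8.30 and 11.05 in mainstream lungs, against 7.84, 8.28 and 9.78 in air lungs. Cxcl10 had log2 signals of 6.46, 7.89 and 10.66 in mainstream lungs, against 5.57, 5.87 and 7.05 in air lungs. One lung of each group stood above the rest for Irf7, and the difference of Irf7 was 0.28 and was not called. Without RW-MS-7 and RW-SC-4, Cxcl10 rose by 1.74 and 4 members of the list rose, with a median of 0.07. Without RW-MS-7 alone the median was -0.04.

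**Figure D3:**
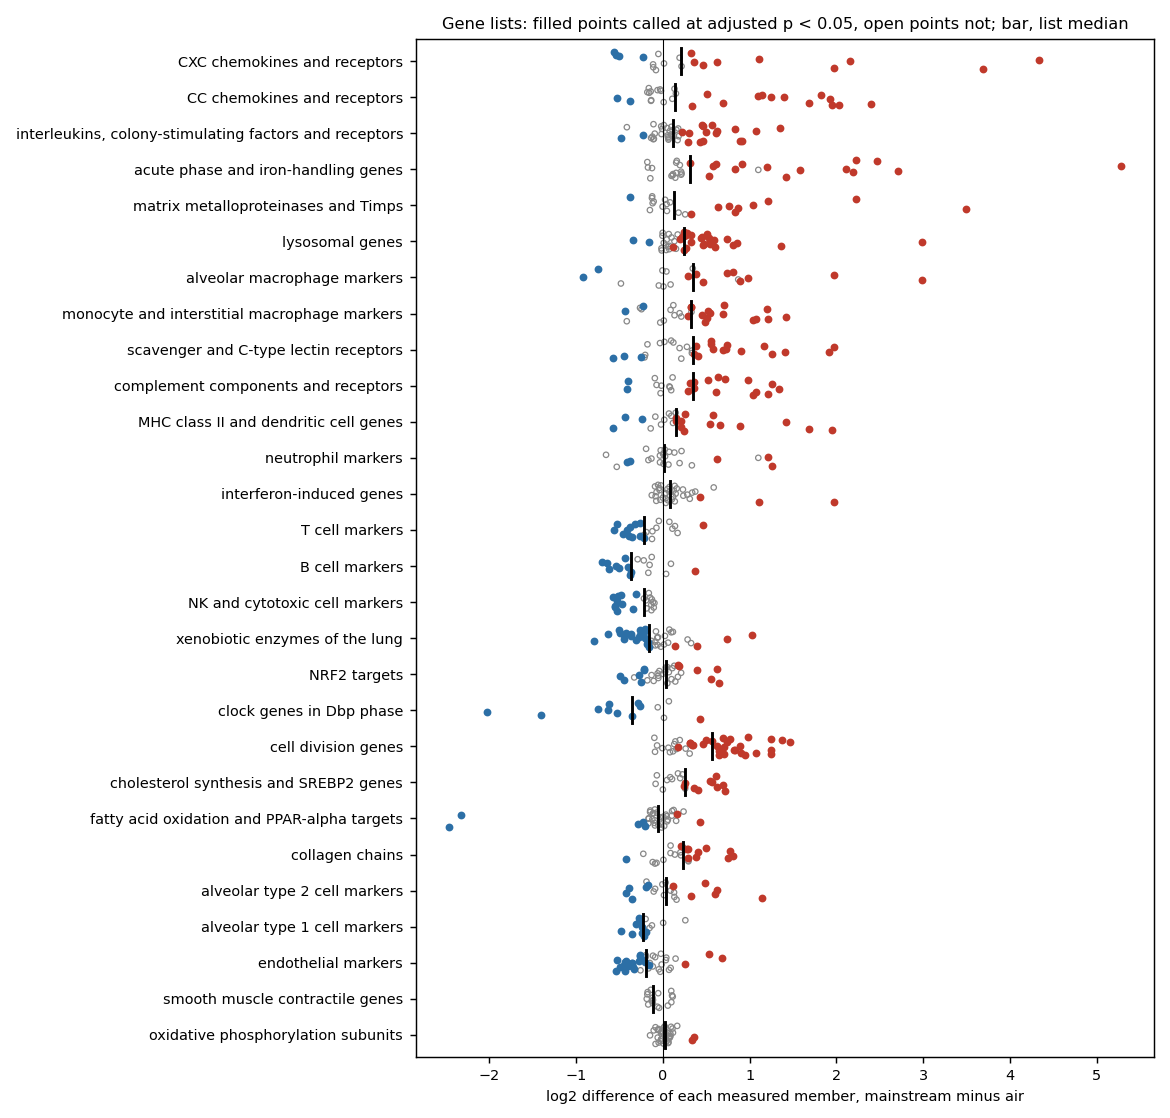
Log2 difference (x axis, mainstream minus air) of every measured member of 28 gene lists; red and blue points passed the adjusted p of 0.05, grey open points did not, and the black bar is the median of the list. Chemokine, acute phase, lysosomal, macrophage and cell division members spread to the right, and lymphocyte, Dbp-phase clock, xenobiotic, type 1 and endothelial members to the left.

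Cyp1a1, the best known target of the aryl hydrocarbon receptor and an enzyme that oxidizes polycyclic hydrocarbons, was lower in mainstream lungs. Cyp1a1 had log2 signals of 8.62, 8.87 and 9.20 in mainstream lungs, against 9.16, 9.50 and 10.32 in air lungs. It fell by 0.69 ± 0.15 (SE, adjusted p 0.00314), and 7 of 8 mainstream lungs lay below every air lung. Cyp1b1, another target, rose by 0.58 ± 0.08, and its 3 probe sets lay between -0.05 and 0.64. Cyp1b1 had log2 signals of 7.81, 8.12 and 8.45 in mainstream lungs, against 7.33, 7.54 and 7.70 in air lungs. The Cyp1b1 groups were apart. The remaining 8 of the 10 measured genes of this list, among them the receptor repressor Ahrr at -0.04, Tiparp at 0.12 and Nqo1 at -0.04, were not called. Another probe set of Tiparp was called, and its probe sets lay between -0.08 and 0.21. The share called in the list was 20%, against 17.8% of all genes.

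More of the other xenobiotic enzymes of the lung fell than rose. Of 41 measured, 19 fell and 4 rose (56.1% called against 17.8% of all genes, median -0.16). Fmo2, the flavin monooxygenase of lung, fell by 0.63 ± 0.12, the carboxylesterase Ces1f by 0.80, the sulfotransferase Sult1a1 by 0.50, the epoxide hydrolase Ephx1 by 0.45 and Cyp4b1 by 0.36. Fmo2 had log2 signals of 11.72, 12.11 and 12.43 in mainstream lungs, against 12.29, 12.77 and 13.16 in air lungs. For Fmo2, 6 of 8 mainstream lungs lay below every air lung. Cyp2f2, a club cell enzyme that activates naphthalene, fell by 0.20. The oxysterol hydroxylase Cyp7b1 rose by 1.03 and Cyp2e1 by 0.74. Fitted over all 48 arrays the counts were 13 lower and 2 higher, and without RW-MS-5 and RW-MS-7 they were 12 lower and 1 higher.

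NRF2 targets were as often higher as lower. Of 32 measured, 6 rose and 6 fell (37.5% called against 17.8% of all genes, median 0.03). The cystine carrier Slc7a11 rose by 0.62 ± 0.15, the catalytic subunit of glutathione synthesis Gclc by 0.56 ± 0.10, the aldo-keto reductase Akr1b8 by 0.65 and Pgd of the pentose phosphate pathway by 0.39. Nqo1, Gclm, Srxn1 and Txnrd1, which the same factor controls, differed by -0.04, -0.05, 0.11 and 0.13 and none was called. The glutathione transferases Gsta2 and Gstm1 fell by 0.49 and 0.27, and the 4 Gstm1 probe sets lay between -0.30 and 0.04. Slc7a11 had log2 signals of 4.64, 5.07 and 5.6 in mainstream lungs, against 4.05, 4.48 and 4.83 in air lungs. Nqo1 had log2 signals of 6.86, 7.29 and 7.45 in mainstream lungs, against 6.99, 7.29 and 7.62 in air lungs. For Slc7a11, 5 of 8 mainstream lungs lay above every air lung, and the Nqo1 ranges overlapped. Among 26 antioxidant and NADPH oxidase genes 5 rose and 3 fell (30.8% called). The counts were 3 and 2 without RW-MS-4, RW-MS-7, RW-SC-2 or RW-SC-8. Sod2, the mitochondrial superoxide dismutase, rose by 0.43 and Cyba, a subunit of the phagocyte oxidase, by 0.53, and Pon1 fell by 0.69. Of 12 metallothionein and zinc transporter genes 6 rose and 1 fell (58.3% called). The importer Slc39a14 was at 0.63 and Mt2 at 0.56, while Mt1 differed by 0.16 without a call.

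Most general stress lists held calls in both directions. Of 22 heat shock and cold-inducible genes 2 rose and 5 fell, and the inducible Hsp70 genes Hspa1a and Hspa1b differed by 0.30 and 0.51 without calls. Cirbp, a cold-inducible RNA-binding protein, fell by 0.38, and Hspb1 by 0.43. In the unfolded protein and integrated stress list 3 of 26 rose and 4 fell, and Chac1 and Atf5 fell by 0.50 and 0.47, while over all 48 arrays 1 rose and 3 fell. Among 20 p53 targets 4 rose and 0 fell, led by the cell cycle inhibitor Cdkn1a at 0.60, and Mdm2 differed by 0.01 without a call. Among 26 immediate early genes 3 rose and 3 fell (2 and 1 over all 48 arrays), and Fos and Egr1 differed by 0.12 and 0.09 without calls. Glucocorticoid targets gave 6 rises and 4 falls of 20, with Sgk1 at 0.65 and Per1 at -0.75, while Fkbp5 and Tsc22d3, 2 standard targets, differed by 0.01 and -0.13 and were not called. The share called in the heat shock, unfolded protein, p53 and immediate early lists lay between 20% and 31.8% and that of glucocorticoid targets was 50%, against 17.8% of all genes.

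Clock output genes were among the largest falls. The clock factor Bmal1, encoded by Arntl, acts with Clock at E-box sequences to drive Nr1d1, Dbp and the Per genes, and Nr1d1, which encodes Rev-erb alpha, in turn represses Arntl and Nfil3. Nr1d1 had log2 signals of 7.95, 8.24 and 8.41 in mainstream lungs, against 9.85, 10.13 and 10.72 in air lungs. Dbp had log2 signals of 9.71, 10.26 and 10.51 in mainstream lungs, against 11.15, 11.64 and 11.79 in air lungs. Both genes were fully separated. Nr1d1 fell by 2.03 ± 0.11 (SE, adjusted p 3.87e-10) and Dbp by 1.41 ± 0.10 (adjusted p 2.20e-08). Per1 fell by 0.75, Nr1d2 by 0.63, Tef by 0.62, Hlf by 0.53, Cry2 by 0.35 and Per3 by 0.27, while Per2 differed by -0.06 without a call, although a second probe set of it fell by 0.42. Of the 13 measured genes that peak with Dbp, 9 fell and 1 rose (median -0.35), against 10% and 7.82% of all genes. For 7 of the 13 all 8 mainstream lungs lay below all 8 air lungs, against 2% of all genes. The gene that rose was Bhlhe40, a repressor also induced by stress and inflammation, at 0.43. In the opposite phase, Arntl rose by 0.53 ± 0.10, Nfil3 by 0.67 ± 0.10, Clock by 0.32 and Cry1 by 0.26, and Rora fell by 0.25, so that 4 of 6 measured genes rose and 1 fell, against 3 and 0 when any 1 of RW-MS-2, RW-MS-3, RW-MS-5, RW-MS-7, RW-SC-1, RW-SC-2, RW-SC-3 and RW-SC-4 was left out. The hour of necropsy of each group is not given in the sources used here, and the part of the time of day in this result was not tested.

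Promoters of Tef and Per3 are shown because they hold the sequence elements of this loop. Both are RefSeq sequences of GRCm38.p6 of the same 300 bases around the start, read along the gene. Tef, at chr15:81802423-81802722 on the plus strand, holds the E-box CACGTG once, 127 bases before the start. Per3, at chr4:151044616-151044915 on the minus strand, holds the D-box TTATGTAA, which Dbp, Tef and Hlf bind, at 2 places, 205 and 158 bases before the start. Capitals mark the elements.
Tef: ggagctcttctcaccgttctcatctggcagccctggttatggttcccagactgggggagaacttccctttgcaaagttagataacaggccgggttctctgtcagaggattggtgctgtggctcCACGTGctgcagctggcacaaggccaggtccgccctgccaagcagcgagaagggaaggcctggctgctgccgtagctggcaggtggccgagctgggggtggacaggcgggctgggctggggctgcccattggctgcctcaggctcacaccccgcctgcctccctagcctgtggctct
Per3: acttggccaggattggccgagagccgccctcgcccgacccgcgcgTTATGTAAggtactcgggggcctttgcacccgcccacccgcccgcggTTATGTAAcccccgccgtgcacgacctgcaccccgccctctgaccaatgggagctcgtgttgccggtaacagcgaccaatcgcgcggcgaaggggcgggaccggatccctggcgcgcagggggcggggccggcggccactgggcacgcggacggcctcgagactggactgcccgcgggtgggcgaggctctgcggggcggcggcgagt
Of the 10 Dbp-phase genes with a promoter in the table, 3 held CACGTG (Bhlhe41, Per1 and Tef) and 1 held TTATGTAA on either strand, against 8.09% and 1.11% of 27025 genes. Neither element was found in the windows of Nr1d1 and Dbp.

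Cell division genes rose as a group. Of 41 measured, 28 rose and 0 fell (68.3% called), and the median was 0.56 against -0.03 over all genes. The mean level of the list lay between 7.43 and 8.35 in mainstream lungs and between 7.0 and 7.25 in air lungs, without overlap. Mki67, the proliferation antigen Ki-67, rose by 1.47 ± 0.21, Rrm2, a subunit of ribonucleotide reductase, by 1.37 ± 0.17, Top2a by 1.25 ± 0.20 and the mitotic kinase gene Cdk1 by 1.24 ± 0.19. Mki67 had log2 signals of 7.16, 7.53 and 8.91 in mainstream lungs, against 5.63, 6.25 and 6.70 in air lungs. Top2a had log2 signals of 7.20, 7.56 and 8.87 in mainstream lungs, against 6.16, 6.51 and 6.76 in air lungs. The groups did not overlap for either gene, and a second Top2a probe set with a lower signal differed by -0.36 and was called lower. RW-MS-5 and RW-MS-7 were the highest mainstream lungs for the list, at 8.35 and 7.97, against 7.43 to 7.63 in the other 6. Without these 2 lungs 24 genes rose and 0 fell, with a median of 0.34, and fitted over all 48 arrays 16 rose. Replication licensing genes rose less, with Mcm5 at 0.46 and Mcm2 at 0.35, and Pcna and Ccnd1 differed by 0.14 and 0.08 without calls. Which cells divided was not measured.

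**Figure D4:**
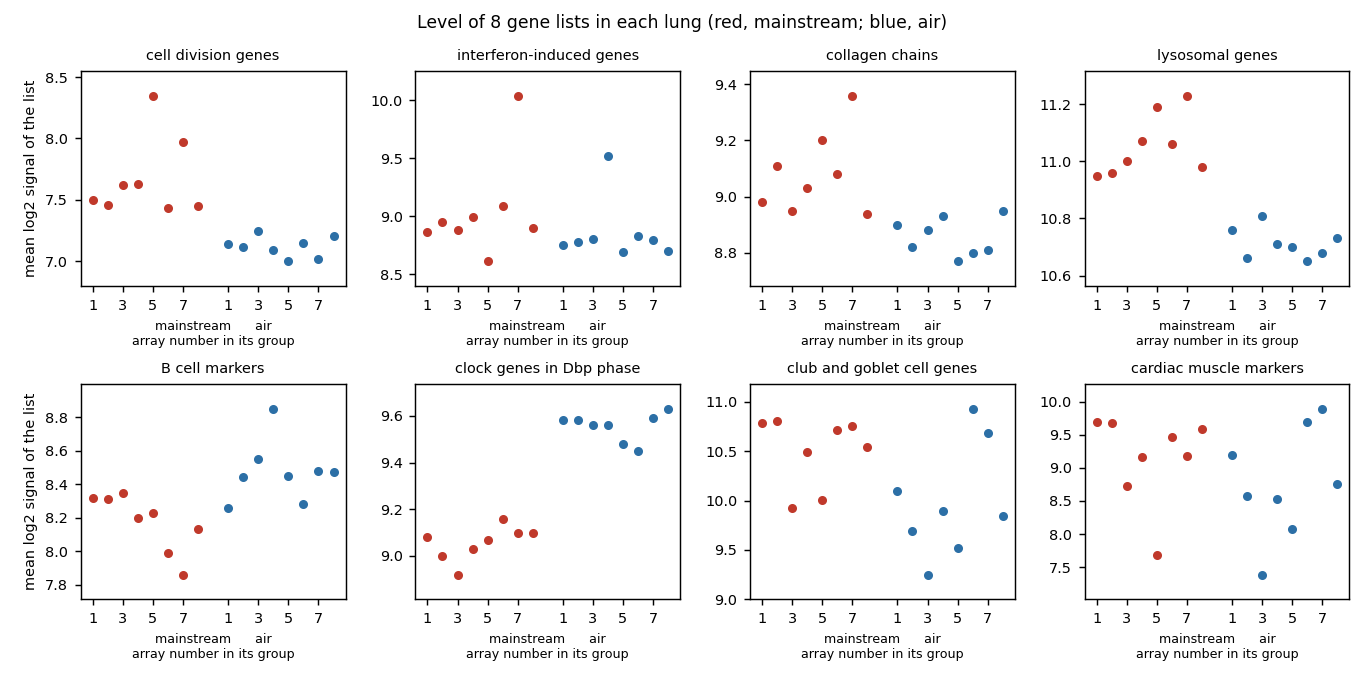
Mean log2 signal of 8 gene lists in each lung (y axis), with mainstream lungs in red and air lungs in blue by array number (x axis). Cell division, lysosomal and Dbp-phase clock genes do not overlap between the groups, RW-MS-7 and RW-SC-4 stand above their groups in interferon-induced genes, and club cell and cardiac muscle levels vary widely within both groups.

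Genes of cholesterol synthesis rose together. Of 20 measured genes of the pathway and of its regulator SREBP2, 10 rose and 0 fell (50% called, median 0.25). Cyp51 rose by 0.72 ± 0.09, Idi1 by 0.70, Hmgcs1, which makes the precursor HMG-CoA, by 0.62 ± 0.08, Sqle, squalene epoxidase, by 0.61 and Mvd by 0.55. Hmgcs1 had log2 signals of 10.81, 11.12 and 11.51 in mainstream lungs, against 10.26, 10.52 and 10.63 in air lungs. All 8 mainstream lungs lay above every air lung. The level of the list was highest in RW-MS-5, at 9.58 against 9.14 to 9.32 in the other 7 mainstream lungs and 8.90 to 9.13 in air lungs. The Hmgcs1 promoter, at chr13:119690101-119690400 on the plus strand of GRCm38.p6 (RefSeq, the same 300 bases around the start), holds the sterol element TCACCCCAC that SREBP2 binds, 137 bases before the start and in capitals.
Hmgcs1: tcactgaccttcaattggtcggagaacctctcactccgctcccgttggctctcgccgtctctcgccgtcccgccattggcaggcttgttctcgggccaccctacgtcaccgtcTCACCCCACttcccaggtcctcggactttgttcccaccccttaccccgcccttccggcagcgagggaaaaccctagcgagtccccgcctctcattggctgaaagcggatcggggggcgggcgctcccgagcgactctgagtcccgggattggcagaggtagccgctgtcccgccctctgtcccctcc
It was 1 of 16 pathway genes in the table with these letters on either strand, against 0.614% of 27025 genes. Fatty acid synthesis genes gave 2 rises and 2 falls of 21, a share of 19.0% called, near the 17.8% of all genes. Fasn was at 0.31 and Scd1, which was not called, at 0.01. The counts were 1 and 1 without RW-MS-7 or RW-SC-3, 1 and 0 over all 48 arrays and 2 and 5 over the 43 arrays left without the 5 outlying ones, and Fasn lost its call in 10 of 28 settings.

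Acaa1b and Fabp1 were the largest falls of all genes. Acaa1b is a peroxisomal thiolase of fatty acid oxidation and Fabp1 a fatty acid binding protein, and PPAR-alpha is known to control both in mouse liver. Acaa1b had log2 signals of 5.18, 5.63 and 6.49 in mainstream lungs, against 7.93, 8.18 and 8.37 in air lungs. Fabp1 had log2 signals of 5.6, 6.31 and 6.69 in mainstream lungs, against 8.04, 8.62 and 8.71 in air lungs. The groups were far apart for both, and the differences were -2.46 ± 0.15 (adjusted p 9.45e-10) and -2.33 ± 0.14 (adjusted p 9.45e-10). Of 36 measured genes of fatty acid oxidation 5 fell and 2 rose (median -0.06), a share of 19.4% called beside 17.8% of all genes, with 3 lower and 0 higher over all 48 arrays. Cpt1a, the gate of mitochondrial oxidation, fell by 0.23 (0.000237 with its probe sets averaged) and Acot1 by 0.29, Angptl4 rose by 0.43, and Ppara, Acadm and Ehhadh differed by -0.15, -0.09 and -0.03 without calls. Of 41 subunits of oxidative phosphorylation 2 rose and 0 fell (median 0.02), and 1 rose when any 1 of RW-MS-2, RW-MS-3, RW-MS-5, RW-MS-6, RW-MS-7, RW-MS-8, RW-SC-1, RW-SC-2, RW-SC-3, RW-SC-4 and RW-SC-8 was left out. Of 33 proteasome subunits 5 rose and 0 fell, a share of 15.2% called beside 17.8% of all genes. The proteasome count was 1 without RW-MS-5 or RW-MS-7, 2 without RW-SC-2 or RW-SC-4, and 3 without RW-MS-3, RW-MS-6, RW-MS-8 or RW-SC-8.

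Fibrillar collagens and elastin rose in mainstream lungs. Of 25 measured collagen chains 10 rose and 1 fell, Col17a1 of epithelial anchoring (44% called against 17.8% of all genes, median 0.23). Of 33 genes of elastic fibres, crosslinking and matrix glycoproteins 11 rose and 1 fell (36.4% called, median 0.11). Col3a1 and Col1a1, the fibrillar collagens of interstitium, rose by 0.81 ± 0.15 and 0.75 ± 0.19, Col5a2 by 0.77 and Col6a3 by 0.50. Col3a1 had log2 signals of 12.36, 12.70 and 13.47 in mainstream lungs, against 11.47, 11.96 and 12.32 in air lungs. Tnc, tenascin C, a matrix protein of repair, rose by 1.17 ± 0.29, Eln, elastin, by 0.69 ± 0.16, the crosslinking enzymes Lox and Loxl1 each by 0.60, and Fn1, fibronectin, by 0.54. Tnc had log2 signals of 7.04, 7.58 and 9.70 in mainstream lungs, against 6.60, 6.73 and 7.06 in air lungs. RW-MS-7 was the highest mainstream lung for the collagen list, at 9.36 against 8.94 to 9.20 in the other 7 and 8.77 to 8.95 in air lungs. The collagen counts were 6 and 1 without RW-MS-5 and also without RW-MS-7. Tgfb1 differed by 0.08 without a call, Igf1, a growth factor of macrophages and fibroblasts, rose by 1.07 ± 0.18, and the binding proteins Igfbp3 and Igfbp6 fell by 0.76 and 0.94. Socs3, a feedback inhibitor of Il6 signalling, rose by 0.99.

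Alveolar and vascular identity genes were lower in part. Of 15 type 1 cell markers 9 fell and 0 rose (60% called, median -0.23). Among them Aqp5 was at -0.35, Hopx at -0.24, Ager at -0.22 and Vegfa at -0.28, while Pdpn differed by 0.00 without a call. Type 2 cell markers gave 6 rises and 5 falls of 21 measured (52.4% called). Sftpd, a collectin of host defence, rose by 0.48 ± 0.04 and Chil1, a chitinase-like protein, by 1.14 ± 0.04. Sftpb fell by 0.17, and the lung transcription factor gene Nkx2-1 by 0.39. Sftpc differed by -0.01 ± 0.03 without a call, and its second probe set by -0.13. The Sftpc signals lay near 15.27, the highest value on the arrays, where a change may not show. Sftpd had log2 signals of 14.42, 14.47 and 14.55 in mainstream lungs, against 13.91, 14 and 14.07 in air lungs. The groups did not overlap for Sftpd.

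Of 38 endothelial markers 18 fell and 3 rose (55.3% called against 17.8% of all genes, median -0.20). Pecam1 fell by 0.43, Cdh5, VE-cadherin, by 0.33, Ramp2 by 0.53, the BMP receptor gene Acvrl1 by 0.54 and the endothelin receptor Ednrb by 0.49. Acvrl1 had log2 signals of 11.28, 11.56 and 11.76 in mainstream lungs, against 11.87, 12.12 and 12.29 in air lungs. The 3 that rose are adhesion molecules for leukocytes, Selp at 0.68, Vcam1 at 0.53 and Icam1 at 0.26. Kdr and Vwf differed by -0.15 and -0.02 without calls. Of 17 smooth muscle contractile genes 0 were called in either direction. Among 23 endothelin and prostanoid genes 8 rose and 6 fell (60.9% called). Ptgs2, inducible cyclooxygenase, rose by 0.75 ± 0.16, the prostacyclin receptor Ptgir by 1.32 ± 0.10 and the leukotriene synthase Ltc4s fell by 0.52. Without RW-MS-7 and RW-MS-8 4 genes of that list rose and 4 fell.

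Airway secretory genes were the most uneven. Bpifa1, a defence protein of the upper airway epithelium, averaged 12.79 ± 1.01 in mainstream lungs and 10.81 ± 2.17 in air lungs (SD, n = 8 each). Bpifa1 had log2 signals of 11.01, 13.20 and 13.80 in mainstream lungs, against 7.31, 10.94 and 13.82 in air lungs. Despite a difference of 1.98 it was not called, and neither were Reg3g at 1.80, Bpifb1 at 1.56, Scgb3a1 at 1.32 and Muc5b at 0.59. Scgb1a1, the main club cell protein, differed by -0.01 ± 0.04, but its signals lay near 15.27, the highest value on the arrays, where a change may not show. Of 22 club and goblet cell genes 2 rose (Retnla and Muc4) and 4 fell, a share of 27.3% called against 17.8% of all genes. With the replicate number as a block 9 rose and 4 fell. The counts were 8 and 4 without RW-SC-6, 7 and 4 without RW-MS-3 and 6 and 4 without RW-SC-7. The air lungs RW-SC-6 and RW-SC-7, the highest of their group for this list at 10.93 and 10.68, were also the highest for the 17 cardiac muscle markers, at 9.69 and 9.89. Cardiac muscle surrounds pulmonary veins in mice, and the cardiac level lay between 7.69 and 9.69 in mainstream lungs and between 7.39 and 9.89 in air lungs, with 0 of 17 genes called. The part of this uneven content in the airway results was not tested. Of 10 ciliated cell markers 0 rose and 1 fell, Tppp3. Counts called were 1 of 14 adipocyte, 1 of 18 skeletal muscle, 1 of 9 red cell, 1 of 8 thymocyte and 0 of 12 squamous markers, and the levels of these lists overlapped between the groups.

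Several of the largest falls belonged to no list. Bex2 fell by 1.19 ± 0.10 (SE, adjusted p 1.28e-07), the transcription factor Hes2 by 1.14, Asgr1, a subunit of the asialoglycoprotein receptor, by 1.11, the glycine methyltransferase Gnmt by 0.92, the transcription factor Klf15 by 0.75, the carbonic anhydrase Car14 by 0.72 and the transporter Slc6a15 by 0.71. Bex2 had log2 signals of 8.44, 9.15 and 9.30 in mainstream lungs, against 10.15, 10.26 and 10.55 in air lungs. That the groups did not overlap was a condition for the choice of these 7 genes, as for all of the 15 largest rises and 15 largest falls.

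Mainstream smoke was also set against sidestream smoke in mice of the same diet, with limma over all 48 arrays. Here 1211 of 12393 genes were called (9.77%), of which 750 were higher and 461 lower with mainstream smoke. Saa3, Mmp12, Cxcl5, Cxcl1 and Ly6i had the largest positive differences. Saa3 had log2 signals of 11.62, 13.60 and 13.92 in mainstream lungs, against 7.62, 7.85 and 9.24 in sidestream lungs, and the difference was 5.38 ± 0.25 (log2 ± SE, adjusted p 9.67e-22). Mmp12 had log2 signals of 9.38, 10.27 and 10.59 in mainstream lungs, against 6.26, 6.62 and 6.81 in sidestream lungs, with a difference of 3.67 ± 0.13. Every mainstream lung lay above every sidestream lung for both genes. The differences were 3.43 ± 0.34 for Cxcl5, 3.43 ± 0.24 for Cxcl1 and 3.21 ± 0.24 for Ly6i. Against air the sidestream lungs differed in these 5 genes by -0.10, -0.18, 0.91, 0.26 and 0.22, with 0 of 5 called over 48 arrays. The choice of these genes by their difference between the smokes favours low sidestream values, so the missing calls do not show sidestream lungs at air level. Cxcl5 lay between 4.47 and 6.31 in sidestream and between 3.51 and 5.25 in air lungs.

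The largest negative differences were those of Acaa1b at -2.70 ± 0.16, Fabp1 at -2.12 ± 0.20, Ear3 at -1.41 ± 0.16, Cidec, a lipid droplet gene, at -1.17 ± 0.36 and Krt79 at -1.11 ± 0.11. Acaa1b had log2 signals of 5.18, 5.63 and 6.49 in mainstream lungs, against 8.05, 8.24 and 9.39 in sidestream lungs, so the groups were apart. Cidec had log2 signals of 6.22, 7.14 and 7.58 in mainstream lungs, against 7.55, 7.67 and 11.15 in sidestream lungs. One sidestream lung stood far above the other 7 for Cidec, and with the 5 outlying arrays of the series left out, 1 of them a sidestream lung, the difference was -0.76 (adjusted p 0.0025). By list, mainstream lungs were higher than sidestream lungs in 26 of 44 lysosomal genes, 20 of 31 acute phase and iron genes, 15 of 28 monocyte and interstitial macrophage markers, 14 of 20 cholesterol genes, 12 of 28 CC chemokine genes and 11 of 25 collagen chains. Of the lymphocyte lists, 0 of 17 B cell, 0 of 22 T cell and 0 of 21 NK genes were lower in mainstream than in sidestream lungs, and 3, 1 and 0 were higher. The medians of these lists were 0.01, -0.06 and -0.09, and the spread pooled over 48 arrays entered these calls too. Clock genes in Dbp phase were higher in mainstream than in sidestream lungs for 5 of 13 and lower for 0, where 9 were lower against air. This comparison and the one with air share the 8 mainstream lungs. With each array centred on its median, 711 genes were higher and 677 lower, and without the 5 arrays 1086 and 1030.

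Whether diet altered the response was tested as the regular weight response to mainstream smoke minus the obese response, over all 48 arrays. A call was made for 110 of 12393 genes (0.888%), 37 with a more positive and 73 with a more negative response in regular weight mice. Cyp1a1 differed most. Its response was -0.69 in regular weight and 3.62 in obese mice, a difference of -4.31 ± 0.30 (log2 ± SE, adjusted p 2.10e-14). Cyp1a1 had log2 signals of 8.62, 8.87 and 9.20 in regular weight mainstream lungs, against 9.16, 9.50 and 10.32 in regular weight air lungs. In obese mice they were 7.10, 8.52 and 9.04 after mainstream smoke, against 4.09, 4.73 and 5.10 in air. The obese air lungs were far below the other 3 groups, and the air lungs of regular weight mice were the highest group of these 4.

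**Figure D5:**
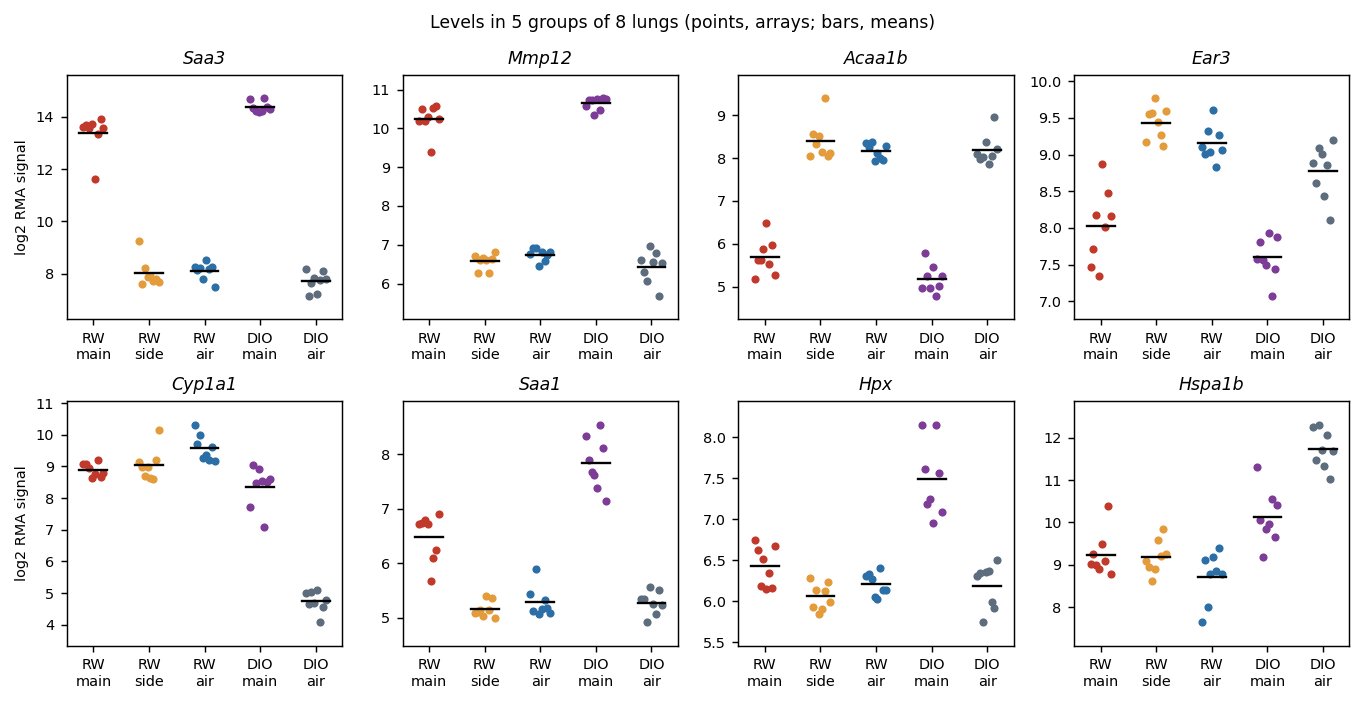
Log2 RMA signal of 8 genes in regular weight (RW) lungs after mainstream smoke, sidestream smoke and air, and in obese (DIO) lungs after mainstream smoke and air; points are lungs, bars are means, 8 lungs a group. Sidestream lungs lie near air lungs for Saa3, Mmp12 and Acaa1b, genes chosen by their difference between mainstream and sidestream lungs. For Cyp1a1 the obese air lungs are the low group, between 4.09 and 5.10.

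Acute phase genes were among the more negative differences. The response of Saa1 was 1.2 in regular weight and 2.56 in obese mice, and the difference was -1.35 ± 0.21 (adjusted p 3.87e-04). Saa1 had log2 signals of 5.69, 6.73 and 6.90 in regular weight mainstream lungs, against 5.07, 5.18 and 5.90 in regular weight air lungs. In obese mice they were 7.15, 7.78 and 8.55 after mainstream smoke, against 4.93, 5.30 and 5.56 in air. The air groups overlapped, and the obese mainstream lungs all lay above the regular weight mainstream lungs. Of the 31 acute phase and iron genes 6 had a more negative difference and 0 a more positive one, and of 24 genes of MHC class II and dendritic cells 8 and 0. Saa3 differed by -1.38 ± 0.36 (adjusted p 0.0459), Hpx, hemopexin, by -1.09 ± 0.18 (adjusted p 7.55e-04) and Orm2 by -1.42 ± 0.36 (adjusted p 0.041). Leaving out the 5 outlying arrays, 4 of them from obese mainstream or air lungs, the Saa3 difference was -1.33 (adjusted p 0.0952) and was not called, the Orm2 difference -0.77 and the Hpx difference -0.75, both still called.

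For the 5 largest positive differences the response in obese mice was below 0. Hspa1b, an inducible Hsp70, responded by 0.51 in regular weight and -1.61 in obese mice, a difference of 2.12 ± 0.34 (adjusted p 3.87e-04), and Hspa1a differed by 1.77 ± 0.28. Hspa1b had log2 signals of 8.79, 9.05 and 10.39 in regular weight mainstream lungs, against 7.65, 8.81 and 9.40 in regular weight air lungs. In obese mice they were 9.18, 10.01 and 11.30 after mainstream smoke, against 11.02, 11.69 and 12.31 in air. The obese air lungs were the highest of the 4 groups. Zbtb16, a transcription factor induced by glucocorticoids, differed by 1.59 ± 0.38, Egln3, a hypoxia-induced prolyl hydroxylase, by 1.35 ± 0.35 and the smooth muscle actin Actg2 by 1.04 ± 0.25. Without the 5 arrays Egln3 differed by 0.81 and Actg2 by 0.81. Levels of cardiac muscle markers lay between 6.93 and 9.74 in obese mainstream lungs and between 8.04 and 10.40 in obese air lungs, and their part in the Actg2 result was not tested. Of 17 smooth muscle contractile genes 6 had a more positive difference, and of 22 heat shock and cold-inducible genes 5. Fitted on the 32 arrays of these 4 groups alone, 35 genes were called (8 and 27), and Orm2, Egln3 and Actg2 were not among them. With each array centred on its median the split was 58 more positive and 48 more negative.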

How the data were processed

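Whole-lung RNA was measured on Affymetrix arrays, and each array was counted as 1 animal. The deposited log2 values had been made by the authors with RMA, per the submitters' processing notes. Which software ran RMA, and on which arrays jointly, is not given in the sources used here. No scan date or batch was used, so batches were not tested. For arrays, their number limits the precision. Of 22690 probe sets, 64 controls and 2246 without exactly 1 gene symbol were set aside, and the probe set with the highest mean over 48 arrays was kept for each of 12393 genes.

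Mainstream and air lungs were compared with limma 3.58.1 in R 4.3.3 (lmFit and eBayes, 16 arrays, two-sided, Benjamini-Hochberg over all genes, adjusted p below 0.05), and the other comparisons over 48 arrays. "Called", "rose" and "fell" refer to this threshold, and values after ± are standard errors unless marked SD. The code was tested on simulated data. Named are the 15 largest rises and 15 largest falls without overlap between groups, the key genes and largest movers of 56 gene lists, and the 5 largest differences each way of the other comparisons; further members are given with their values. These members and lists were chosen with earlier results of these data known. Same-numbered arrays of the groups did not deviate together (8 pairs, r between -0.26 and 0.08), so they were not paired. Alternatives varied the arrays, normalization, filter, probe set rule, variance model and block. Promoters came from RefSeq (GRCm38.p6), and motifs were searched on both strands. Figures were drawn with matplotlib 3.10.9.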

Additional observations from a re-analysis of the deposited data

Results flagged for a closer look

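Within each group of 8 lungs, the highest or lowest lung stood apart from the other 7 by Dixon's test in 67 of 756 sets of values, which are the 322 named genes and 56 list levels in both groups. Chance gives such a gap in about 1 of 20 sets, so single cases carry little weight, and 16 were RW-MS-5 and 16 RW-MS-7. Values below are log2 signals, with the range of the other 7 lungs where given. RW-MS-5 was the highest of its group for Hmox1 at 9.61 (others 8.68 to 9.05), Idi1 at 10.70 (others 10.17 to 10.37), Lrg1 at 13.05 (others 12.03 to 12.47) and Mvd at 8.66 (others 7.9 to 8.16). RW-MS-5 was also the highest of its group for Prg2 at 5.52 (others 4.13 to 4.58) and the mean level of cholesterol synthesis and SREBP2 genes at 9.58 (others 9.14 to 9.32). RW-MS-5 was the lowest of its group for Csf1 at 9.29 (others 9.72 to 9.97), Cxcl2 at 4.95 (others 6.15 to 6.56), Ly6i at 9.08 (others 10.41 to 11.45) and Mmp12 at 9.38 (others 10.19 to 10.59). RW-MS-5 was also the lowest of its group for Mpo at 3.95 (others 4.31 to 4.53), Saa3 at 11.62 (others 13.36 to 13.92), Steap4 at 9.47 (others 10.55 to 10.93) and the mean level of CXC chemokines and receptors at 8.43 (others 8.74 to 8.96). RW-MS-5 was also the lowest of its group for the mean level of CC chemokines and receptors at 7.42 (others 7.61 to 7.76) and the mean level of skeletal muscle markers at 5.72 (others 6.05 to 6.28). RW-MS-7 was the highest of its group for C1qa at 11.51 (others 10.59 to 11.02), C1ra at 10.60 (others 9.75 to 10.12), Cxcl10 at 10.66 (others 6.46 to 8.21) and Fkbp5 at 9.35 (others 8.68 to 8.96). RW-MS-7 was also the highest of its group for Fos at 10.94 (others 9.12 to 9.97), Gla at 8.36 (others 7.30 to 7.73), Hspa1a at 8.38 (others 7.56 to 7.88) and Hspa1b at 10.39 (others 8.79 to 9.48). RW-MS-7 was also the highest of its group for Irf7 at 11.05 (others 7.76 to 8.78), Orm1 at 8.76 (others 7.31 to 7.77), Vsig4 at 5.93 (others 5.04 to 5.45) and the mean level of interferon-induced genes at 10.04 (others 8.61 to 9.09). RW-MS-7 was the lowest of its group for Asgr1 at 4.45 (others 5.21 to 5.77), Bex2 at 8.44 (others 9.06 to 9.30), Gnmt at 7.20 (others 7.65 to 7.91) and Nqo1 at 6.86 (others 7.23 to 7.45). RW-SC-4 was the highest of its group for Cxcl10 at 7.05 (others 5.57 to 5.91), Fcgr1 at 8.42 (others 7.56 to 7.91), Irf7 at 9.78 (others 7.84 to 8.34) and the mean level of interferon-induced genes at 9.52 (others 8.69 to 8.83). RW-SC-4 was the lowest of its group for Ephx1 at 11.77 (others 11.95 to 12.03).

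RW-MS-1 was the lowest of its group for Tgfb1 at 10.05. RW-MS-3 was the highest of its group for Ngp at 6.89. RW-MS-4 was the highest of its group for Csf3r at 9.40. RW-MS-6 was the highest of its group for Mdm2 at 9.54 and Tsc22d3 at 11.48. RW-MS-6 was the lowest of its group for Cry1 at 8.51 and the mean level of unfolded protein and integrated stress response at 10.14. RW-MS-8 was the lowest of its group for Irs1 at 8.91. RW-SC-1 was the highest of its group for Hspb1 at 13.47 and Klf15 at 10.25. RW-SC-1 was the lowest of its group for Hexa at 10.88 and Mcm2 at 8.64. RW-SC-2 was the highest of its group for Prg2 at 5.11. RW-SC-2 was the lowest of its group for Mmp2 at 9.18. RW-SC-3 was the highest of its group for Bex2 at 10.55 and Saa1 at 5.90. RW-SC-3 was the lowest of its group for Ccl3 at 5.43 and Msr1 at 6.03. RW-SC-5 was the highest of its group for Fabp5 at 12.82, S100a8 at 12.03 and Trem2 at 7.05. RW-SC-5 was the lowest of its group for Acadm at 10.24. RW-SC-6 was the highest of its group for Muc5ac at 7.26. RW-SC-6 was the lowest of its group for Dbp at 11.15, Fscn1 at 7.29 and Siglecf at 7.71. RW-SC-7 was the highest of its group for Clca1 at 9.28 and Slc2a1 at 8.93. RW-SC-8 was the highest of its group for Fn1 at 11.46 and Ighm at 11.88.

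The response to mainstream smoke differed between regular weight and obese mice for 27 of the named genes (regular weight minus obese response, log2, adjusted p below 0.05 in limma over 48 arrays). More negative differences were Cyp1a1 at -4.31, Orm2 at -1.42, Saa3 at -1.38, Saa1 at -1.35, Hpx at -1.09, Dbp at -0.95 and Ccr7 at -0.92. Smaller ones were Nr1d1 at -0.89, Clec4n at -0.87, Fpr2 at -0.82, Cp at -0.75, Ccl9 at -0.74, Ccr2 at -0.72 and Mmp12 at -0.71, and Cd86 at -0.71, Ciita at -0.69, Serpina3n at -0.69, Cxcr5 at -0.68, H2-Ab1 at -0.53, Csf2ra at -0.51 and Cd74 at -0.39. More positive differences were Idi1 at 0.43, Actg2 at 1.04, Egln3 at 1.35, Zbtb16 at 1.59, Hspa1a at 1.77 and Hspa1b at 2.12.

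Among 2246 probe sets without exactly 1 gene symbol, which entered no comparison above, 255 were called between mainstream and air lungs, 135 higher and 120 lower. They are not named here.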

How the results depend on the processing

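The count of genes changed by mainstream smoke against air was 2211 and lay between 1774 (without RW-MS replicate 7) and 2226 (without RW-SC replicate 7) when each lung was left out in turn. It was 1819 over all 48 arrays, of which 1622 were shared with the 2211, 3015 over 43 arrays, 2258 with arrays centred, 2349 after quantile normalization, 2192 without dim genes and 2322 with probe sets averaged. With the replicate number as a block it was 1766, and since the numbers do not pair the samples this is only a change of model; the block gave 1186 for mainstream against sidestream smoke and 98 for the difference between diets. Leaving out the arrays of repeated source gave 1549. Chosen after seeing the data, leaving out RW-MS-7 and RW-SC-4 gave 1588 and leaving out RW-MS-5 and RW-MS-7 gave 1488. Asking for a fold of at least 1.5 as well left 281 genes. Mainstream against sidestream smoke gave 1211 genes, and 2116 without the 5 arrays that stand apart. The difference between diets gave 110 genes, and 35 on the 32 arrays of its 4 groups. Of the 244 named genes that were called, 204 kept their call in every setting that gave them a value, among them the 15 largest rises and the 15 largest falls, of which Cxcl2, Hes2 and Asgr1 had a value in 27 settings and the others in 28. Ctsf and Cyp2e1 lost it in 20 settings, Cxcr3 and Cycs in 18, Rora in 17, Angptl4 and Cry1 in 16, and Nkx2-1 in 15. The fall of Cpt1a turned to 0.000237 when its probe sets were averaged. The causes were not tested.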

Other observations

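Genes of insulin, IGF and adipokine signalling gave 3 rises and 4 falls among 23 measured (30.4% called against 17.8% of all genes, median -0.08). Beside Igf1, Socs3, Igfbp3 and Igfbp6, the glucose transporter Slc2a1 rose by 0.39, while the insulin receptor substrate Irs1 and the growth factor Igf2 fell by 0.43 and 0.31. Several single genes outside the main lists of the response moved as well. Acsl4, which loads arachidonic acid onto coenzyme A, rose by 0.68, Muc1, an epithelial surface mucin, by 0.62, and the fatty acid binding protein gene Fabp5 by 0.96, while Fabp1 was among the largest falls. The mitochondrial genes Cycs and Cox5a were the 2 of 41 oxidative phosphorylation genes that rose, by 0.36 and 0.34. The call of Cycs was lost in 18 of 28 alternative settings.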
